A study of Mus musculus with 8 samples.

Results

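The 9 matrix metalloproteinase genes Mmp2, Mmp3, Mmp9, Mmp10, Mmp11, Mmp12, Mmp13, Mmp14 and Mmp19, together with Timp1, were followed in 4T1 tumors. These 10 genes were chosen by name and found by matching symbols to the Ensembl identifiers of the count tables. They are 10 of 25006 identifiers counted, and all 10 passed the filter on low counts that kept 15310 genes. The study grew 4T1 cells, a mammary tumor line of Balb/c origin used for triple-negative breast cancer, in the fat pad of NSG mice or of Balb/c mice and sequenced the tumor RNA. NSG mice lack mature T, B and NK cells but keep macrophages, neutrophils, fibroblasts and vessels of their own, whereas Balb/c mice are immunocompetent. Wild-type (WT) lines were parental 4T1 and 4T1 stably expressing vCas9, and the knockout (KO) lines were ko54 and ko69, in which CRISPR/Cas9 was directed at CD95, the death receptor encoded by Fas. Each line was grown in each host, which gave 4 groups of 2 libraries, namely NSG WT, NSG KO, Balb/c WT and Balb/c KO. The 2 libraries of a group are therefore different lines, whether a library is 1 tumor or several is not given, and p-values measure the spread between these libraries only. Age and sex of the hosts are not given in the labels.

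Matrix metalloproteinases are zinc-dependent proteases that are made as inactive proenzymes and cut collagens, gelatin, elastin, proteoglycans and many signaling proteins. Collagenases such as Mmp13 open fibrillar collagen, gelatinases (Mmp2 and Mmp9) digest the unwound chains and basement membrane collagen, and stromelysins (Mmp3 and Mmp10) cut a broad range of matrix proteins and activate other proenzymes. Timp1 is a secreted inhibitor that binds active metalloproteinases. In tumors many of these enzymes are made by fibroblasts, macrophages and neutrophils as well as by tumor cells.

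Mmp13, Mmp12, Mmp3 and Mmp10 lie in 1 cluster of 9 protein-coding metalloproteinase genes on mouse chromosome 9, which spans 427.1 kb in the GRCm38 build. Their promoters are shown because the 3 largest differences between hosts among the 10 genes, in KO tumors, came from this cluster and went in opposite directions within it. Each sequence runs from 250 bases before to 50 bases after the RefSeq start (GRCm38.p6), 5′ to 3′, and capitals mark the AP-1 motif, TGAGTCA or its reverse complement TGACTCA.
Mmp13 promoter, chr9:7272264-7272563, plus strand: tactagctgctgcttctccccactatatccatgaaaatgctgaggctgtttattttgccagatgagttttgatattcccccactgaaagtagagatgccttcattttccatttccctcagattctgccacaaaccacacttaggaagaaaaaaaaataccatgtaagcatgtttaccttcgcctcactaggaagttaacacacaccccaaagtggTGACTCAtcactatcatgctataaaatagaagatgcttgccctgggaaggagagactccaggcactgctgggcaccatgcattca
Mmp12 promoter, chr9:7344147-7344446, plus strand: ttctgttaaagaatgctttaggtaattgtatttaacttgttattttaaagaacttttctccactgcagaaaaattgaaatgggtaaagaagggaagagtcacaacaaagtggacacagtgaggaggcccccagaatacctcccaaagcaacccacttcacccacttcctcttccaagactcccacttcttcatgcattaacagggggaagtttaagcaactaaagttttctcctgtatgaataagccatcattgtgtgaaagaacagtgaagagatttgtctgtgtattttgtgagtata
Mmp3 promoter, chr9:7445572-7445871, plus strand: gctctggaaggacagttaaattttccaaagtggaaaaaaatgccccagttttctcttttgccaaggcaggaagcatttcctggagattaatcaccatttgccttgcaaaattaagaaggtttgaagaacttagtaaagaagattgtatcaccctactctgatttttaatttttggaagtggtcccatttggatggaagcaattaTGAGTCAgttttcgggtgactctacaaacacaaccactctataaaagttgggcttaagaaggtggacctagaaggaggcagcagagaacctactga
Mmp10 promoter, chr9:7502092-7502391, plus strand: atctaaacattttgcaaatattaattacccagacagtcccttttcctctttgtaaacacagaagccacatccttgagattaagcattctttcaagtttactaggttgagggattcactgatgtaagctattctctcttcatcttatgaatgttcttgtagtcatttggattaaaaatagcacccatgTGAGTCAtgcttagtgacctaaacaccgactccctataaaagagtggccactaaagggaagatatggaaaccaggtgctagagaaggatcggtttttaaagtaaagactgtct
The AP-1 motif is the recognition sequence of Fos and Jun dimers. It was found 35 bases before the start of Mmp13, 46 bases before that of Mmp3 and 63 bases before that of Mmp10, and it was not in the Mmp12 window. Promoter entries existed for 7 of the 10 genes, and 3 of the 7 held the motif, against 5.20% of 32851 mouse promoters of the same length. The GGAA core of ETS factors, which was searched on both strands and does not overlap the AP-1 letters, was in 95.99% of all promoters, at a median of 3 matches. It matched 6 times in Mmp13, 4 times in Mmp12, 7 times in Mmp3 and 3 times in Mmp10. A match describes the letters of the window only. Mmp3, which was lower in Balb/c hosts, and Mmp13, which was higher, both carried the AP-1 motif.

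Library totals ranged from 8680070 to 19655945 counts. NSG ko54 stood apart in the share of its counts assigned to Mir6236, 5.79% against 0.110% to 1.43% in the other 7 libraries. Values per library are counts scaled to a common depth with TMM factors (CPM, the usual unit), and differences are log2 fold changes from edgeR's quasi-likelihood test with Benjamini-Hochberg adjustment over all 15310 genes, called at an adjusted p under 0.05. Fas stood at 33.9 and 22.6 CPM in the NSG WT tumors, 29.5 and 12.9 in NSG KO, 51.6 and 46.9 in Balb/c WT, and 27.1 and 33.7 in Balb/c KO. Its RNA was not called lower in the knockouts of either host (adjusted p of 0.628 in NSG and 0.225 in Balb/c). A CRISPR/Cas9 cut need not lower RNA and the tumors hold host cells, so these values do not check the knockout labels, and "knockout" below is the label. The epithelial marker Epcam stood at 47.5 and 116 CPM in NSG WT, 416 and 288 in NSG KO, 65.1 and 133 in Balb/c WT, and 45.2 and 228 in Balb/c KO, and the defining markers of macrophages, fibroblasts and neutrophils were above 0 in each library. Summed CPM of 9 epithelial tumor markers was 1290 and 1654 in NSG WT, 3268 and 2264 in NSG KO, 1033 and 2092 in Balb/c WT, and 647 and 3439 in Balb/c KO. Between hosts 1 of the 9 was called higher in Balb/c WT tumors and 2 lower in Balb/c KO tumors, and without Balb/c ko69 8 were lower in KO tumors. The WT call was lost without any 1 WT library, with lines paired across hosts as a replicate block and with total-count scaling, and the KO count was 0 without NSG ko54 and 1 without Balb/c ko54, with the block and in the fit of only the KO libraries. T cell markers summed to between 4.60 and 9.0 CPM in NSG tumors and between 295 and 315 CPM in Balb/c tumors.

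The host was the comparison in which members passed the test. In WT tumors 5 of the 10 genes differed between Balb/c and NSG hosts, 1 higher (Mmp13) and 4 lower (Mmp3, Timp1, Mmp14 and Mmp19) in Balb/c, beside 31.5% of all genes tested. In KO tumors 5 of the 10 differed, 2 higher (Mmp13 and Mmp12) and 3 lower (Mmp3, Mmp2 and Mmp9) in Balb/c, beside 31.1% of all genes. The median log2 fold change of the 10 genes was -0.81 in WT tumors and -0.40 in KO tumors, where the medians over all genes were -0.08 and 0.02. Mmp13 and Mmp3 were called in both line types, in opposite directions. These tumors are mixtures, so that fewer cells of a type and less RNA per cell cannot be told apart for any of these genes.

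**Figure D1:**
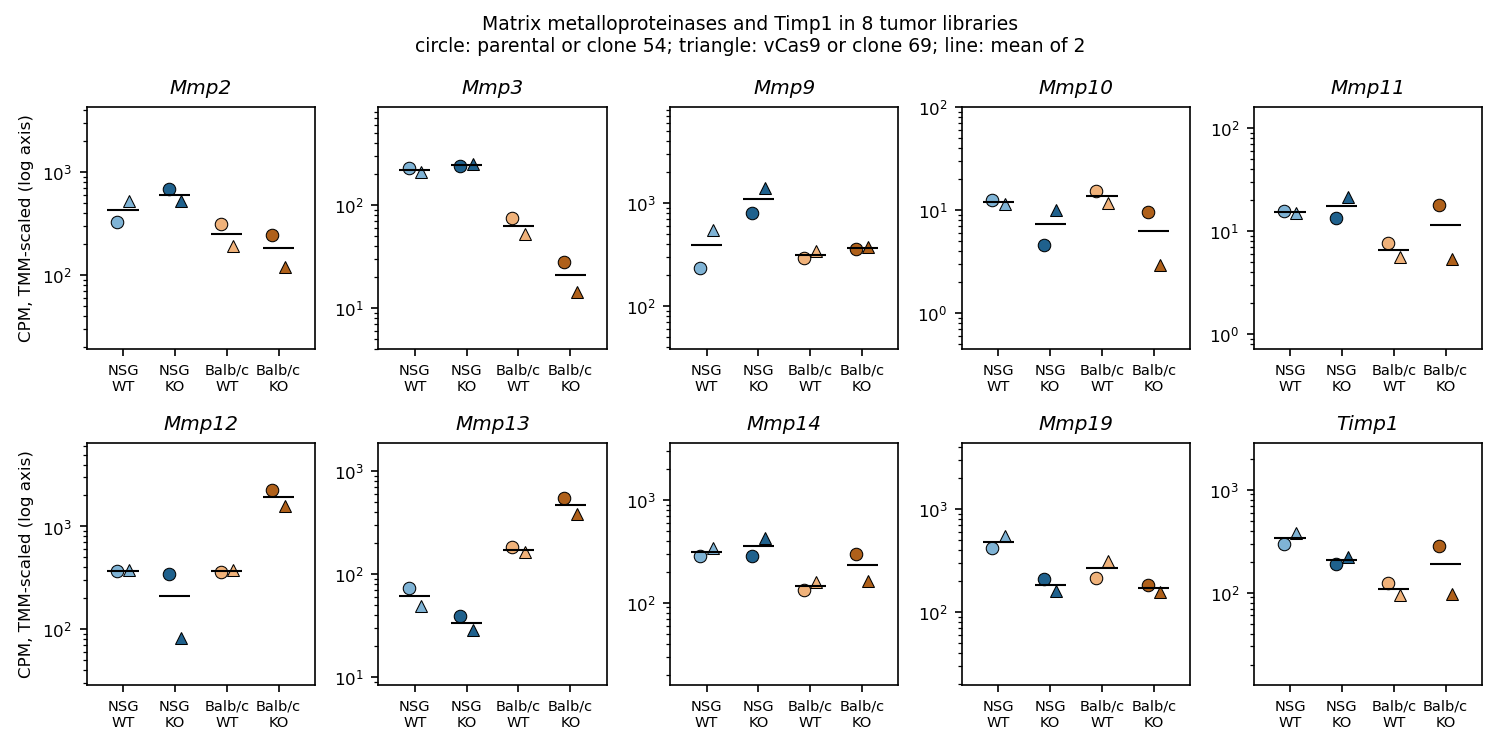
TMM-scaled CPM (log axis, the same fold range in every panel) of each of the 10 genes in the 4 groups of 2 libraries, with circles for the parental and ko54 lines, triangles for the vCas9 and ko69 lines, and lines for the group mean. Mmp12 stood at 1587 and 2284 CPM in the Balb/c KO tumors and at 379 CPM or less in the other 6 libraries, and Mmp3 was at 74.2 CPM or less in each Balb/c tumor.

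Mmp13 is the main collagenase of mice. It stood at 73.1 and 48.5 CPM in NSG WT tumors (parental and vCas9), 39.2 and 28.3 CPM in NSG KO (ko54 and ko69), 182 and 164 CPM in Balb/c WT, and 552 and 387 CPM in Balb/c KO. Each Balb/c tumor was above each NSG tumor. Mmp13 was 2.84-fold higher in Balb/c than in NSG hosts in WT tumors (log2 fold change 1.51, SE 0.28, adjusted p = 0.00828, edgeR) and 13.9-fold higher in KO tumors (3.80, SE 0.31, adjusted p = 0.000349). The call in KO tumors held in all 10 alternatives run. The call in WT tumors was lost without the NSG vCas9 library (1.23, adjusted p = 0.0666) and without the Balb/c parental library (1.42, adjusted p = 0.0532), and over the alternatives adjusted p ran from 3.49e-06 to 0.0666.

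Mmp12 is the macrophage metalloelastase, which degrades elastin. Its level was nearly the same in 5 of the 6 libraries outside Balb/c KO, at 366 and 377 CPM in NSG WT, 345 CPM in NSG ko54, and 362 and 379 CPM in Balb/c WT. NSG ko69 was lower at 81.5 CPM, and Balb/c KO was higher at 2284 CPM (ko54) and 1587 CPM (ko69). The 2 NSG KO libraries differed 4.23-fold, the widest gap between libraries of a group among the 10 genes. In KO tumors Mmp12 was 9.08-fold higher in Balb/c hosts (log2 fold change 3.18, SE 0.60, adjusted p = 0.00643, edgeR), a call that held in all 10 alternatives. In WT tumors the difference was near 0 (-0.00, SE 0.55, adjusted p = 0.996), and its sign changed with the processing.

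Summed CPM of 10 macrophage markers was 3139 and 3168 in NSG WT, 1663 and 2149 in NSG KO, 2208 and 2602 in Balb/c WT, and 10252 and 4321 in Balb/c KO. All 10 markers passed the filter, and 7 of the 10 were called higher in Balb/c than in NSG hosts in KO tumors, while 1 was called higher and 3 lower in WT tumors. In KO tumors 3 were higher without NSG ko54, with lines paired across hosts as a replicate block, and in the fit of only the KO libraries. In WT tumors the counts became 2 higher and 2 lower with RLE size factors, 0 higher and 5 lower with total-count scaling, and 0 with the block, and leaving out any 1 WT library gave 0 higher and between 0 and 2 lower. The defining marker Adgre1 stood at 761 and 631 CPM in Balb/c KO and between 119 and 338 CPM in the other 6 libraries. Mmp12 and the macrophage sum were both highest in the 2 Balb/c KO libraries. Of the 2 NSG KO libraries, ko69 had the higher macrophage sum (2149 against 1663 CPM) and the lower Mmp12 (81.5 against 345 CPM). The part of macrophage content in the Mmp12 and Mmp13 values was not tested.

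Mmp3 is a stromelysin that fibroblasts secrete and that activates other metalloproteinases. Its level was close in the 4 NSG tumors, at 230 and 210 CPM in WT and 239 and 250 CPM in KO. In Balb/c hosts it was 74.2 and 52.6 CPM in WT tumors and 27.7 and 14.4 CPM in KO tumors. No Balb/c library overlapped an NSG library, and the Balb/c KO libraries lay below the Balb/c WT libraries. Mmp3 was 3.47-fold lower in Balb/c hosts in WT tumors (log2 fold change -1.79, SE 0.31, adjusted p = 0.00663, edgeR) and 11.6-fold lower in KO tumors (-3.53, SE 0.33, adjusted p = 0.000509). The KO call held in all 10 alternatives. The WT call was lost without the NSG parental library (-1.73, adjusted p = 0.0519) and without the Balb/c vCas9 library (-1.50, adjusted p = 0.0598), and over the alternatives adjusted p ran from 4.40e-06 to 0.0598.

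Mmp10 and Mmp11 were the least abundant of the 10 genes per kilobase of exonic length in each group. Mmp10, a second stromelysin, ranged from 2.92 CPM (Balb/c ko69) to 15.5 CPM (Balb/c parental). Mmp11, which is typical of the stroma around carcinomas, ranged from 5.32 CPM (Balb/c ko69) to 21.8 CPM (NSG ko69). Neither gene was called in any comparison by edgeR with 4 group means over all 8 libraries. In KO tumors Mmp11 was called lower in Balb/c hosts without the Balb/c ko54 library (-1.76, adjusted p = 0.0142, range over the alternatives 0.0142 to 0.969). In WT tumors its log2 fold change was -1.23 (adjusted p = 0.102), and it was called in the fit of only the WT libraries (-1.16, adjusted p = 0.00938, range over the alternatives 0.00938 to 0.368). Mmp11 shares 155 exonic bases with Chchd10 on the other strand, and since the strand setting of the counting is not given, reads of the pair cannot be told apart there.

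Mmp2 is a gelatinase of mesenchymal cells. It stood at 324 and 524 CPM in NSG WT tumors, 689 and 519 CPM in NSG KO, 311 and 191 CPM in Balb/c WT, and 244 and 118 CPM in Balb/c KO. The NSG tumors were all above the Balb/c tumors. In KO tumors Mmp2 was 3.33-fold lower in Balb/c hosts (log2 fold change -1.74, SE 0.42, adjusted p = 0.0170, edgeR), which was lost without NSG ko54 (-1.52, adjusted p = 0.0691, range over the alternatives 0.000163 to 0.0691). NSG ko54 had the highest Mmp2 and is the library with 5.79% of its counts in Mir6236, whose part in the result was not tested. In WT tumors the log2 fold change was -0.76 (SE 0.41, adjusted p = 0.182).

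Summed CPM of 10 fibroblast markers was 2177 and 3231 in NSG WT, 4716 and 3544 in NSG KO, 2354 and 1595 in Balb/c WT, and 2358 and 1107 in Balb/c KO. Of these markers 7 were called lower in Balb/c than in NSG hosts in KO tumors and 2 in WT tumors, with no marker higher. In KO tumors the 7 became 3 without NSG ko54, 3 without Balb/c ko69, 10 without Balb/c ko54 and 4 with the block, and in WT tumors 0 were called with the block or without any 1 WT library. Pdgfra, the defining marker, stood between 173 and 282 CPM in NSG tumors and between 34.6 and 135 CPM in Balb/c tumors. The lowest Mmp2, the lowest Mmp3 and the lowest fibroblast sum were all in Balb/c ko69. Balb/c ko54 and Balb/c parental had fibroblast sums of 2358 and 2354 CPM, above the 2177 CPM of NSG parental. Their Mmp3 was 27.7 and 74.2 CPM, below the 230 CPM of NSG parental. The part of fibroblast content in the Mmp2 and Mmp3 values was not tested.

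**Figure D2:**
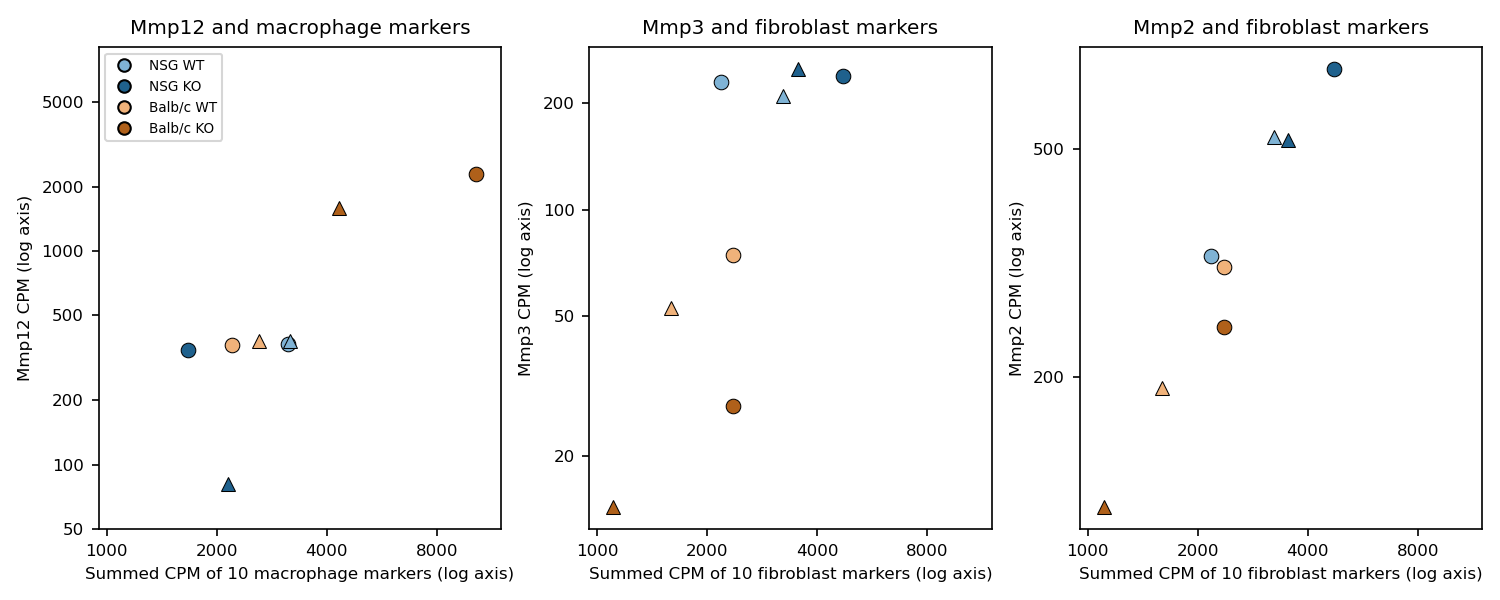
CPM of Mmp12 against the summed CPM of 10 macrophage markers, and of Mmp3 and Mmp2 against the summed CPM of 10 fibroblast markers, all on log axes, 1 point per library (circles for parental and ko54, triangles for vCas9 and ko69, colors for the 4 groups). Balb/c ko69 had the lowest fibroblast sum (1107 CPM), the lowest Mmp2 (118 CPM) and the lowest Mmp3 (14.4 CPM). Balb/c ko54 had a higher fibroblast sum than NSG parental (2358 against 2177 CPM) and less Mmp3 (27.7 against 230 CPM).

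Mmp9, the gelatinase stored in neutrophil granules and also made by macrophages, had its highest levels in NSG KO tumors. It stood at 236 and 543 CPM in NSG WT, 805 and 1394 CPM in NSG KO, 294 and 339 CPM in Balb/c WT, and 358 and 373 CPM in Balb/c KO. The 2 NSG KO libraries were above the other 6. In KO tumors Mmp9 was 3.01-fold lower in Balb/c hosts (log2 fold change -1.59, SE 0.41, adjusted p = 0.0222, edgeR). That call was lost without NSG ko69 (-1.14, adjusted p = 0.123), without Balb/c ko54 (-1.59, adjusted p = 0.0654) and without Balb/c ko69 (-1.61, adjusted p = 0.0572), in a range from 0.000382 to 0.123 over the alternatives. Neutrophil markers, 10 in number, summed to 1382 and 1739 in NSG WT, 3263 and 1529 in NSG KO, 7855 and 6235 in Balb/c WT, and 549 and 2667 in Balb/c KO. Of these markers 6 were called higher in Balb/c hosts in WT tumors, and 1 higher and 1 lower in KO tumors. In WT tumors 9 were higher with DESeq2, and 10 with no filter and in the fit of only the WT libraries. The WT count was between 0 and 2 when any 1 WT library was left out and 1 with the replicate block, and the KO counts became 1 higher and 7 lower without Balb/c ko69 and 0 with the block. The 2 Balb/c WT libraries, which had the highest sums, had 294 and 339 CPM of Mmp9. The epithelial tumor markers also had higher sums in the 2 NSG KO libraries (3268 and 2264 CPM) than in the 2 NSG WT libraries (1290 and 1654 CPM). The part of neutrophil or tumor cell content in the Mmp9 values was not tested.

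Mmp14, the membrane-anchored enzyme that activates Mmp2 at the cell surface, stood at 286 and 343 CPM in NSG WT, 286 and 427 CPM in NSG KO, 133 and 159 CPM in Balb/c WT, and 298 and 163 CPM in Balb/c KO. Its Balb/c WT libraries were the lowest. In WT tumors Mmp14 was 2.15-fold lower in Balb/c hosts (log2 fold change -1.11, SE 0.32, adjusted p = 0.0346, edgeR), and the call was lost when lines were paired across hosts as a replicate block (adjusted p = 0.0943, range over the alternatives 0.00342 to 0.172). In KO tumors the libraries overlapped (-0.63, adjusted p = 0.170), and the difference was called without Balb/c ko54 (-1.15, adjusted p = 0.0250, range over the alternatives 0.0250 to 0.60).

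Mmp19, an enzyme of vessels, macrophages and skin, was highest in NSG WT tumors, at 424 and 546 CPM. It stood at 212 and 159 CPM in NSG KO, 217 and 316 CPM in Balb/c WT, and 182 and 158 CPM in Balb/c KO. In WT tumors Mmp19 was 1.82-fold lower in Balb/c hosts (log2 fold change -0.86, SE 0.26, adjusted p = 0.0369, edgeR), which was lost with the replicate block (adjusted p = 0.0509) and with another scaling of library size (adjusted p = 0.0545), in a range from 0.0168 to 0.209 over the alternatives. In KO tumors the hosts overlapped (-0.13, SE 0.25, adjusted p = 0.743). Mmp19 shares 789 exonic bases with Tmem198b and 212 with Gm47093 on the other strand, so its counts are uncertain to that extent.

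Timp1 stood at 296 and 384 CPM in NSG WT tumors, 190 and 224 CPM in NSG KO, 125 and 93.8 CPM in Balb/c WT, and 285 and 96.9 CPM in Balb/c KO. The 2 Balb/c KO libraries differed 2.94-fold, and ko54, the higher, had an epithelial marker sum of 647 CPM against 3439 CPM in ko69. The macrophage sum (10252 against 4321 CPM) and the fibroblast sum (2358 against 1107 CPM) were higher in ko54. Its neutrophil sum was lower (549 against 2667 CPM). The part of cell content in the Timp1 values was not tested. In WT tumors Timp1 was 3.11-fold lower in Balb/c hosts (log2 fold change -1.64, SE 0.45, adjusted p = 0.0293, edgeR), which was lost with the replicate block (adjusted p = 0.0719, range over the alternatives 0.00227 to 0.172). In KO tumors the difference was -0.11 (SE 0.44, adjusted p = 0.868), and without Balb/c ko54 it became -1.12 (adjusted p = 0.0207, range over the alternatives 0.0207 to 0.994). The WT calls of Timp1, Mmp14 and Mmp19 were each lost when any 1 of the 4 WT libraries was left out, with adjusted p from 0.0755 to 0.209.

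**Figure D3:**
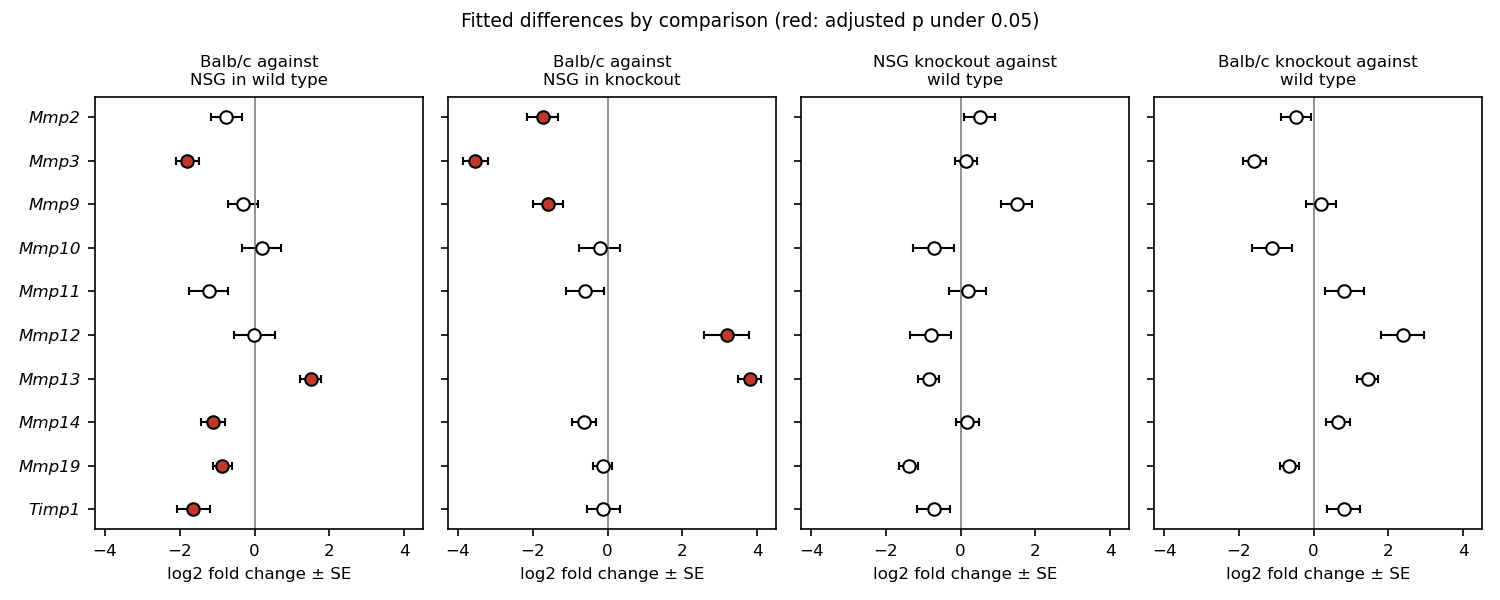
Fitted log2 fold changes with their standard errors for the 10 genes in the 4 comparisons, with red points for an adjusted p under 0.05. Mmp13 and Mmp3 are red in the host comparison of both WT and KO tumors, and no point is red in the 2 knockout comparisons.

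Tumors labelled knockout were compared with WT tumors within each host. In NSG tumors 0 of the 10 genes were called by edgeR, as were 2 of 15310 genes (0.0131%). At an unadjusted p under 0.05 there were 3 of the 10 (Mmp19, Mmp9 and Mmp13), beside 14% of all genes. The libraries of the 2 groups did not overlap for 7 of the 10 genes, beside 52.6% of all genes. Mmp19 had the smallest adjusted p (log2 fold change -1.39, SE 0.26, adjusted p = 0.154), followed by Mmp9 (1.50, SE 0.41, adjusted p = 0.239) and Mmp13 (-0.85, SE 0.28, adjusted p = 0.276). Over all genes DESeq2 called many more than edgeR here, as counted in the section on processing. The edgeR share is therefore not the background of the DESeq2 calls. DESeq2 called 2 of the 10, Mmp19 (adjusted p = 0.000174) and Mmp9 (adjusted p = 0.0121), which were the lowest adjusted p over the alternatives, where the highest were 0.832 and 0.989.

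In Balb/c tumors 0 of the 10 genes were called by edgeR, as were 27 genes in all (0.176%). At an unadjusted p under 0.05 there were 4 of the 10, Mmp13, Mmp3, Mmp12 and Mmp19, beside 30.9% of all genes. The libraries did not overlap for 7 of the 10, beside 62.2% of all genes. Mmp12 was 5.22-fold higher in KO tumors (log2 fold change 2.39, SE 0.58, adjusted p = 0.0602), Mmp13 was 2.72-fold higher (1.44, SE 0.28, adjusted p = 0.0564) and Mmp3 was 3.0-fold lower (-1.59, SE 0.31, adjusted p = 0.0564), all just outside the threshold. Genes called in all were also far more numerous with DESeq2, as counted in the section on processing, so 0.176% is not its background. DESeq2 is thus no separate evidence about these genes as a list. DESeq2 called Mmp12, Mmp13 and Mmp3, at adjusted p of 0.000331, 0.000514 and 5.09e-05, the lowest over the alternatives. Without the Balb/c ko69 library 6 of the 10 were called by edgeR, with log2 fold changes of 2.63 for Mmp12, 1.68 for Mmp13, 1.44 for Mmp11, 1.39 for Timp1, 1.04 for Mmp14 and -1.18 for Mmp3, and 3886 genes were called in all. The remaining KO library, ko54, had the lowest epithelial marker sum (647 CPM) and the highest macrophage sum (10252 CPM) of the 8 libraries, and the part of cell content in these calls was not tested. Without Balb/c ko54 0 of the 10 were called.

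The difference between the knockout effects in the 2 hosts was called for 0 of the 10 genes and for 0 of 15310 genes (0%) by edgeR. At an unadjusted p under 0.05 there were 4 of the 10, beside 22.5% of all genes. Mmp13 had a difference of 2.29 on the log2 scale (SE 0.39, adjusted p = 0.0778), Mmp12 of 3.19 (SE 0.80, adjusted p = 0.105), Mmp3 of -1.74 (SE 0.43, adjusted p = 0.101) and Timp1 of 1.52 (SE 0.62, adjusted p = 0.203). With DESeq2 many genes were called in all, as counted in the section on processing, so the 0% of edgeR is not its background. DESeq2 called 3 of them (Mmp13, adjusted p = 6.44e-05, Mmp12, 0.000952, and Mmp3, 0.00451), the lowest over the alternatives, where the highest were 0.341, 0.362 and 0.362. Without Balb/c ko69 the edgeR differences were 2.54 for Mmp13, 3.44 for Mmp12, -1.34 for Mmp3 and 2.11 for Timp1. The 5 comparisons use the same 8 libraries, so their values are not independent of each other.

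Along the chromosome 9 cluster, distances were counted from the start of Mmp13. Mmp13 and Mmp12, whose starts lie 71.9 kb apart, were the members that were higher in Balb/c KO tumors. Mmp3, at 173.3 kb, was lower in both line types, and Mmp10, at 229.8 kb, was not called (log2 fold change 0.19 in WT and -0.21 in KO tumors). The neutrophil collagenase Mmp8, at 285.9 kb, is not among the 10 genes. It was higher in Balb/c hosts in WT tumors (2.19, SE 0.45, adjusted p = 0.0117) but was not called in KO tumors (0.59, adjusted p = 0.353). Mmp12 shares 157 exonic bases with Mmp1b on the other strand, and Mmp1b itself had 14 counts or fewer in each library.

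**Figure D4:**
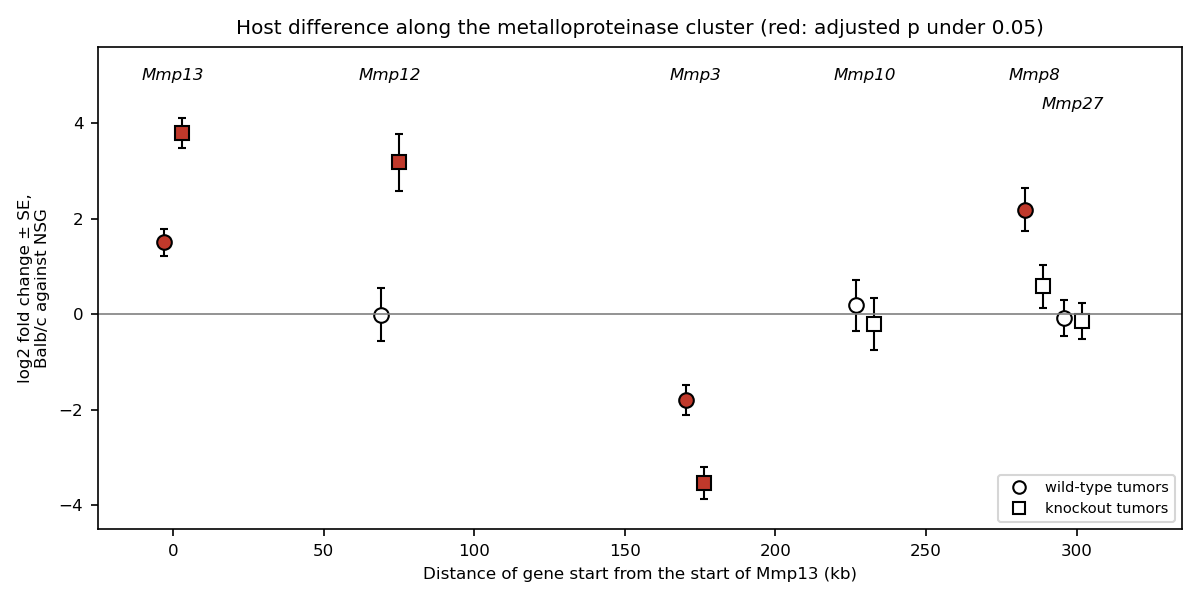
Log2 fold change between Balb/c and NSG hosts with its standard error for the tested metalloproteinase genes of the chromosome 9 cluster, against the distance of the gene's start from that of Mmp13 in kb, with circles for WT tumors, squares for KO tumors and red for an adjusted p under 0.05. Mmp13 and Mmp12 lie at 3.80 and 3.18 in KO tumors and Mmp3 at -3.53.

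The make-up of the metalloproteinase RNA was described per kilobase of exonic length, as shares of the summed CPM per kb of the 9 Mmp genes. The sum was 550 and 720 CPM per kb in NSG WT, 743 and 839 in NSG KO, 430 and 420 in Balb/c WT, and 825 and 588 in Balb/c KO. In NSG KO tumors Mmp9 took the largest share, 30.6% and 47.0%. In Balb/c KO tumors Mmp12 took 38.3% and 37.3% and Mmp13 took 25.1% and 24.6%, with little difference between the 2 lines. Mmp3 made up 23.2% and 16.2% of the sum in NSG WT, 9.58% and 6.95% in Balb/c WT, and 1.87% and 1.36% in Balb/c KO. No share was tested. The exonic length of Mmp12 is 7237 bases against 3607 for its principal transcript, and that of Mmp14 is 5960 against 2596. The sums and shares therefore depend on the length used.

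By mean level per kb, Timp1 was the highest of the 10 genes in NSG WT (383 CPM per kb) and in Balb/c WT (123 CPM per kb). With exonic length it did not overlap the next gene there. Mmp9 was highest in NSG KO (311 CPM per kb) but overlapped Timp1 (233), and Mmp12 was highest in Balb/c KO (267 CPM per kb) but overlapped Timp1 (215), which in turn overlapped Mmp13 (176). In NSG WT the neighbours Mmp19, Mmp2, Mmp3 and Mmp9, from 137 down to 110 CPM per kb, each overlapped the next. In Balb/c WT Mmp9, Mmp19, Mmp2 and Mmp13, from 89.6 down to 64.7 CPM per kb, did the same. Mmp14 and Mmp12 overlapped in NSG WT at 52.7 and 51.4 CPM per kb. With the length of the principal transcript in place of all exons, Mmp12 in Balb/c KO came to 537 CPM per kb and Mmp14 in NSG KO to 137. In Balb/c WT Timp1 then came to 124 CPM per kb, Mmp12 to 103 and Mmp9 to 99.8. Places in the order and overlaps between genes thus depend on the length used.

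The level of Timp1 over the summed level of the 9 Mmp genes, per kb, was 0.606 and 0.60 in NSG WT tumors, 0.288 and 0.301 in NSG KO, 0.327 and 0.251 in Balb/c WT, and 0.389 and 0.186 in Balb/c KO. The 2 NSG WT libraries were above the other 6, also with principal transcript lengths (0.489 and 0.490). The ratio compares RNA levels and says nothing of protein or activity.

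**Figure D5:**
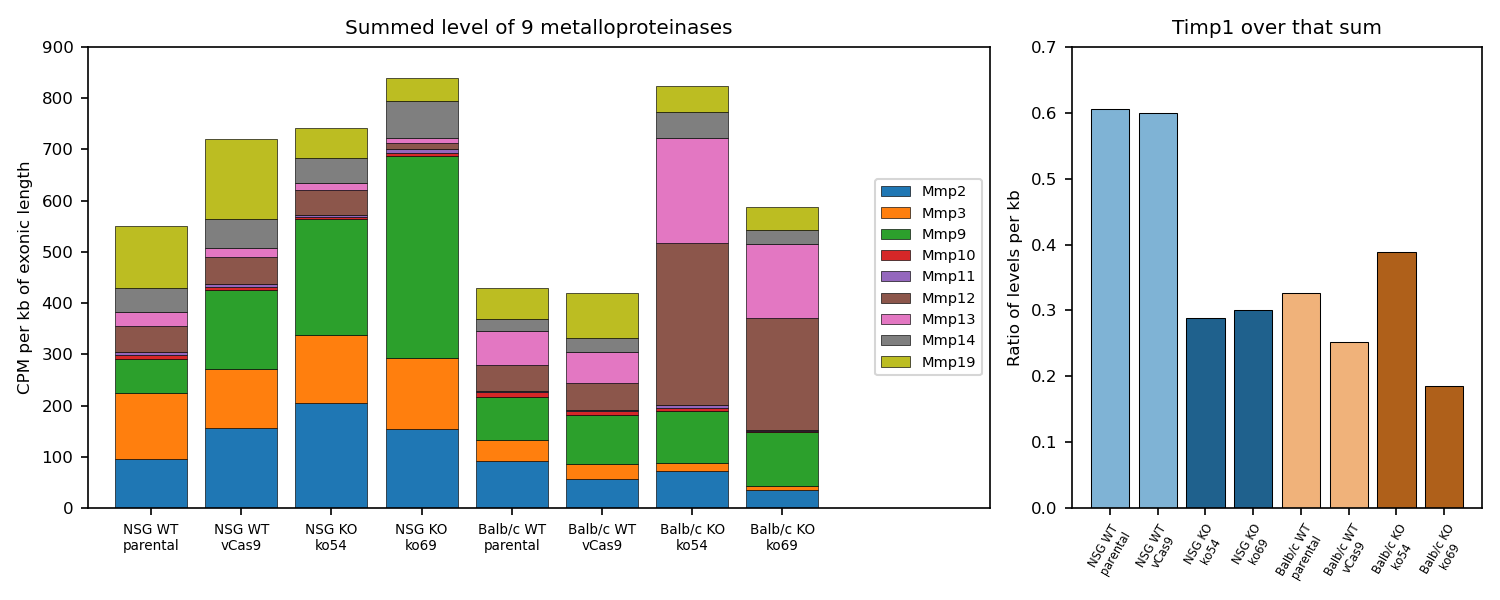
Left, the summed CPM per kb of exonic length of the 9 metalloproteinases in each library, split by gene; right, the ratio of Timp1 to that sum, both per library. Mmp12 and Mmp13 fill most of the Balb/c KO bars, Mmp9 is the largest part of the NSG KO bars, and the ratio is near 0.6 in NSG WT and 0.389 or less elsewhere.

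Across the 8 libraries, log2(CPM + 1) of Mmp3 and Mmp13 ran in opposite directions (Pearson r = -0.94), and Mmp12 ran with Mmp13 (0.87), Mmp2 with Mmp3 (0.90) and Mmp11 with Mmp14 (0.93). These values describe 8 libraries that share lines and hosts. Among 11439 genes with a mean of at least 5 CPM, the gene most like Mmp12 was Tcn2 (r = 0.985), that most like Mmp13 was Ptp4a2 (0.992), and that most like Mmp3 was Kirrel (0.997). Mmp2 ran closest with Pcolce2 (0.994), Mmp9 with Sema6b (0.977), Mmp14 with Mcam (0.989), Mmp19 with Bag3 (0.976) and Timp1 with Psat1 (0.989). Mmp11 ran closest with Ulk2 (0.993) and Mmp10 with Sart1 (0.939), the loosest of these matches. Each match is the highest of 11439 correlations over 8 libraries, so a high r alone shows no link between the genes.

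Genes of the same pathway were counted by list, from lists chosen with earlier results of these data known, and no list had a call by edgeR in either knockout comparison. Each count of a list or of cell markers between hosts stands beside 31.5% of all genes called in WT tumors and 31.1% in KO tumors, and a share near these is no result about the list. Of 14 other metalloproteinases 10 could be tested. Mmp25, the membrane-anchored enzyme of leukocytes, was higher in Balb/c hosts in WT tumors (log2 fold change 4.51) and in KO tumors (3.48), and Mmp8 in WT tumors (2.19), while the sparsely counted Mmp17 was lower in KO tumors (-1.73). Among 6 other inhibitors, the plasma protease inhibitor A2m was lower in Balb/c WT tumors (-4.25), Reck, a membrane-anchored inhibitor, was lower in Balb/c KO tumors (-1.60), and Timp4, at 3.50 CPM or less in each library, was higher there (2.82). The medians of the 6 inhibitors were -0.58 in both line types. With the replicate block 1 of the other metalloproteinases was called in each line type, as higher, and of the inhibitors 0 were called in WT tumors and 1, as lower, in KO tumors. In WT tumors the 2 higher metalloproteinases became 0 without NSG parental and 1 without NSG vCas9 or without Balb/c parental, and the inhibitor call was lost when any 1 WT library other than NSG parental was left out. In KO tumors the metalloproteinase counts lay between 1 and 2 higher and between 0 and 2 lower without 1 KO library. The inhibitor counts there became 1 higher and 4 lower without Balb/c ko54, and 0 higher and 1 lower without any other KO library.

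Plasmin activates several of the proenzymes, and 7 of 8 genes of plasminogen activation were tested. The urokinase receptor Plaur was higher in Balb/c hosts in WT (1.44) and KO tumors (1.49), and the tissue activator Plat was lower in both (-0.87 and -2.19). Serpine2 was lower in WT tumors (-3.57), and the inhibitors Serpinb2 (2.66) and Serpinf2 (2.11) were higher in KO tumors. Serpinf2 was sparsely counted, with 2 and 2 counts in the NSG KO libraries and 17 and 13 in the Balb/c KO libraries. With the replicate block 1 gene of this list was called in each line type, as lower, so that 0 of the higher calls held, and without any 1 WT library 0 were higher in WT tumors.

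Of 13 tested substrates, 4 were lower in Balb/c hosts in WT tumors, a share near the 31.5% of all genes, and 11 in KO tumors, with none higher. The basement membrane collagen Col4a1 was lower in WT tumors (-2.06), as were Col4a2 (-1.74), Spp1 (-1.47) and Sparc (-1.37). Elastin (Eln, -2.96), the proteoglycan Vcan (-2.82) and the fibrillar collagen Col5a1 (-2.39) were among those furthest lower in KO tumors. The list's medians were -1.08 and -2.02. With the block 0 substrates were called in WT tumors and 8 in KO tumors, without any 1 WT library at most 1 was called in WT tumors, the fit of only the WT libraries called 11, without NSG ko69 6 were called in KO tumors, and in a fit of only the KO libraries 4 were. Several of these genes are made by fibroblasts, whose marker sums are given above. Adipocyte markers were also called lower in Balb/c hosts, 3 of 7 in WT tumors and 5 of 7 in KO tumors. The part of cell content in the substrate values was not tested.

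Of 10 cathepsins, lysosomal proteases rich in macrophages, 1 was higher in Balb/c hosts in WT tumors and 9 in KO tumors, none lower. Ctsw, a protease of cytotoxic lymphocytes, was higher in both (3.77 and 4.25), and Ctss (3.01), Ctsl (2.14) and Ctsz (1.68) came next in KO tumors. The count in KO tumors was between 7 and 9 in every alternative run. Macrophage markers were called higher in KO tumors as well, 7 of 10, and the part of macrophage content in the cathepsin values was not tested. Among 15 ADAM and ADAMTS proteases 2 were higher and 3 lower in WT tumors, together near the 31.5% of all genes, and 4 higher and 7 lower in KO tumors. Adam8, a protease of myeloid cells, was higher in both (1.71 and 3.03), as was Adam19 (2.28 in WT tumors and 1.18 in KO tumors), whereas Adamts5, an aggrecanase, was lower in KO tumors (-2.86) and Adamts12 in both (-1.84 and -1.87). In WT tumors the counts fell to 1 or 2 higher and 0 or 1 lower when any 1 WT library was left out. In KO tumors they became 1 higher and 1 lower without NSG ko69, 2 and 4 without NSG ko54, 4 and 4 without Balb/c ko69, and 1 and 4 in the fit of only the KO libraries.

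Of 21 inducers and transcription factors that act on metalloproteinase genes, 6 were higher and 2 lower in Balb/c hosts in WT tumors, and 10 higher and 1 lower in KO tumors. The AP-1 subunit Fosl2 was higher in WT tumors (1.35), as were Ets1 (1.31) and Fos (1.17), while the ETS factor Etv4 was lower in both line types (-2.34 and -3.39). In KO tumors Fosb (1.63), Ets1 (1.49) and the cytokine Osm (1.44) were higher. In WT tumors the counts became 10 higher and 2 lower with RLE size factors, with DESeq2 and with no filter, 15 and 3 in the fit of only the WT libraries, and 4 and 3 with total-count scaling. With the block 3 were called higher in WT tumors and 7 in KO tumors, the fit of only the KO libraries called 3 higher, without NSG ko69 4 were higher in KO tumors, and without 1 of the 2 NSG WT libraries, whichever was left out, 0 were higher in WT tumors.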

How the data were processed

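RNA was sequenced from 8 tumor libraries, and the authors deposited raw counts per Ensembl gene, 1 table per library. Per the labels' protocols, total RNA came from a miRNeasy column preparation with a DNase step, and libraries were standard Illumina ones. Cutadapt 1.13, STAR, HTSeq 0.6.1p1 and DESeq2 and the builds mm10 and hg19 are named in the submitters' processing notes, with no role or order; strand setting, annotation and filters are not given in the sources used here. Symbols matched 24942 of 25006 identifiers, and positions and exonic lengths came from GENCODE M21 (GRCm38).

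These counts were fitted in edgeR 4.0.16 under R 4.3.3 (TMM, filterByExpr by group, glmQLFit and glmQLFTest), with 4 group means over all 8 libraries and 4 residual degrees of freedom. A standard error (SE) is the size of the log2 fold change over the root of F. The procedure was tested on simulated data. DESeq2 1.42.0, other scalings, no filter, fits of the compared libraries only, the cell line as a replicate block in host comparisons, and leaving out each library were run as alternatives (9 to 13 per comparison). The same line in both hosts pairs the samples; the correlation of line deviations between hosts was 0.07 for the WT lines and -0.40 for the KO lines. Replicates of a group differed beyond sampling noise. Chi-square per degree of freedom was 18.4 in NSG WT, 43.7 in NSG KO, 18.1 in Balb/c WT and 115 in Balb/c KO. The fit takes the same spread for all 4 groups, so these differences between groups do not enter its p-values. At 3 counts the libraries resolve between 0.159 and 0.321 CPM, for counting error only.

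All 10 members are named; from other lists at most the 4 called genes furthest from 0 per comparison, plus Fas and defining cell markers; some of the genes this rule names are not reported here. Members and lists were chosen with earlier results of these data known. Promoter sequences came from RefSeq (GRCm38.p6), with entries for 7 of 10 members.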

Additional observations from a re-analysis of the deposited data

How the results depend on the processing

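In the knockout comparison of NSG tumors the count of 2 genes past the threshold became 133 with every gene of at least 1 count, 340 with DESeq2, 1 in a fit of only the compared libraries and 0 without any 1 library; members called were 0, and 1, 2, 0 and 0 in these settings. In that of Balb/c tumors 27 became 1774, 2208, 0 and between 0 and 3886 in the same order, and 94 with RLE size factors; members called were 3, 3, 0 and between 0 and 6, and 0 with RLE. The count of 0 for the difference between hosts became 674 with every gene of at least 1 count, 974 with DESeq2, 307 with crossed lines as the block and between 0 and 2370 without 1 library; members called were 3, 3, 1 and between 0 and 4.

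In host comparisons, the cell line as a replicate block took the WT count from 4825 to 2073 genes and from 5 to 2 members, and the KO count from 4757 to 2878 genes with 5 members. It changed no other member call than those of Mmp14, Mmp19 and Timp1 in WT tumors. Without 1 library the WT count lay between 858 and 1482 genes with 1 member in each case, and the KO count between 2461 and 4640 genes with 4 to 7 members; a fit of only the KO libraries called 2450 genes. The crossed pairing, chosen after seeing the data, called 5436 genes and 6 members in KO tumors, 2 higher and 4 lower, and is not part of the ranges of adjusted p in the report. A group left with 1 library is assumed to vary like the others. The block, single-comparison and left-out fits have fewer libraries or fewer residual degrees of freedom than the full fit. The cause of the changed counts was not tested for any setting.

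Signs reversed only for members with no call in the full fit. Mmp12 between hosts in WT tumors became 0.087 with RLE and with DESeq2, 0.071 with no filter and 0.064 in the fit of the compared libraries, and lay between -0.034 and 0.031 without 1 library. Without 1 library the log2 fold changes of the other such members had these ranges. In NSG KO against WT, Mmp11 lay between -0.20 and 0.48 and Mmp14 between -0.14 and 0.44. In Balb/c KO against WT, Mmp11 lay between -0.41 and 1.44 and Timp1 between -0.28 and 1.39. Between hosts in WT tumors, Mmp9 lay between -0.78 and 0.41 and Mmp10 between -0.022 and 0.44. Between hosts in KO tumors, Mmp10 lay between -1.34 and 0.45, Mmp11 between -1.76 and 0.020, Mmp19 between -0.32 and 0.10, and Timp1 between -1.12 and 0.47. In the difference between hosts, Mmp10 lay between -1.62 and 0.28, Mmp11 between -0.61 and 1.26, and Mmp14 between -0.13 and 0.86. Scaling by total counts moved the median of all genes in WT host comparisons to -0.24 and in KO to -0.17, and changed no call or direction of the 10 genes in 50 values.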
